A study of Brassica rapa with 38 samples.

Results

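Young leaves of diploid *Brassica rapa* were compared with those of the monoploid it was derived from, across the 2 diploid and 3 monoploid RNA-seq libraries, which are 5 of the 8 RNA-seq libraries used from the series. All plants carried the genotype 85_1, an inbred line. The monoploid came from isolated microspore culture, and the diploid from colchicine treatment of the monoploid, so both trace back to the same genome and stand for 1 line each. Both were multiplied in tissue culture and moved to a greenhouse, and inner young leaves were taken in the morning, 60 days after sowing, when heading began. A gene model was compared where its TPM, the number of transcripts of a library's total that it accounts for per 1000000, reached 1 in 2 or more of these 5 libraries, which kept 25157 of 46479. Nothing in the labels says whether the RNA-seq replicates were separate plants or pools, so p-values measure the spread between these libraries, which may be technical.

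A monoploid carries a single set of chromosomes, and colchicine, which blocks the spindle, gives cells that keep both copies after replication. The copy number of every chromosome then rises together, so that the dose of one gene relative to another is kept. Heading is the stage at which inner leaves of heading *Brassica rapa* start to curve and fold into a head. TPM is a share of a fixed total, so a change of all transcripts together leaves no trace in it. In bulk leaf, fewer cells of a type and less RNA per cell cannot be told apart. The gene IDs matched no name in the reference table, so genes are given by ID, position and span (start to end of the gene model, introns included), and neither leaf markers nor gene functions could be looked up. Coordinates are those of the deposited tables, on an assembly not given in the sources used here.

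The libraries held 5.86 to 7.87 Gb of aligned bases, and between 24008 and 24595 gene models reached a TPM of 1. The most abundant transcripts took a larger part of the monoploid libraries. The top 10 gene models of each library held 9.13%, 7.55% and 10.1% of all TPM in monoploid 1, 2 and 3, and 5.86% and 5.55% in diploid 1 and 2. For the top 1000, the shares were 51.4% to 56.2% in the monoploid and 47.7% and 48.9% in the diploid, without overlap. The rest of the genes thus sat on a smaller part of the total in the monoploid. Median-ratio size factors were 0.907, 1.01 and 0.875 for monoploid 1, 2 and 3, and 1.1 and 1.13 for diploid 1 and 2. The median tested gene was 0.25 higher in the diploid on the log2(TPM + 1) scale as deposited and 0.013 higher after dividing each library by its factor. As deposited, 68.7% of the tested genes had a fold change above 0, against 51.1% after rescaling.

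Because of this shift, the same genes were tested with TPM as deposited and after rescaling. A gene was called differentially expressed (DEG) at an adjusted p of at most 0.05 (limma with Benjamini-Hochberg adjustment over all 25157 genes) and an absolute log2 fold change (log2FC) of at least 1 on log2(TPM + 1), a scale that understates the change of genes at low TPM. As deposited, 2573 genes (10.2%) were DEGs, comprising 1230 (4.89%) higher and 1343 (5.34%) lower ones in the diploid. After rescaling, 2395 genes (9.52%) were DEGs, with 636 (2.53%) higher and 1759 (6.99%) lower. The share of lower genes among the DEGs was therefore 52.2% as deposited and 73.4% after rescaling. Both scalings called 1939 genes (7.71%) in the same direction, 636 (2.53%) higher and 1303 (5.18%) lower, and these are called agreed DEGs here. They made up 75.4% of the DEGs as deposited and 81.0% of those after rescaling. Leaving out diploid 1, which leaves 1 diploid library that is then assumed to vary like the monoploid ones, gave 870 DEGs as deposited, 803 after rescaling and 689 agreed ones. Without diploid 2 the rescaled count was 1582.

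**Figure D1:**
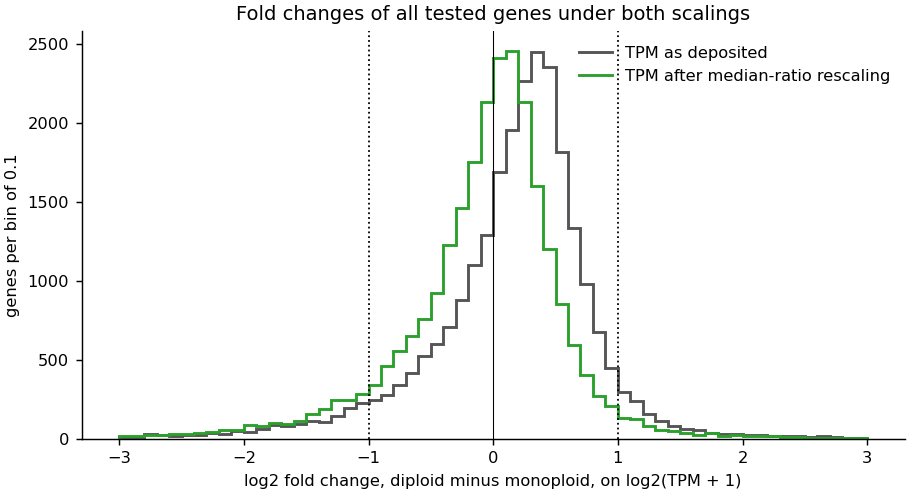
Number of tested genes per bin of 0.1 in log2 fold change (diploid minus monoploid, log2(TPM + 1)), with TPM as deposited (grey) and after median-ratio rescaling (green); dotted lines mark the fold threshold of 1 in each direction. The grey curve has its median at 0.25 and the green one at 0.013, and 170 and 194 genes lie outside the drawn range.

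The scalings disagreed in a regular way. All 636 rises called after rescaling were also called as deposited, while 594 further genes were called higher as deposited alone. Those 594 had a median log2FC of 1.11 as deposited and 0.88 after rescaling, and 418 of them still passed the adjusted p and missed the fold threshold alone. In the other direction, 456 genes were called lower after rescaling alone, with a median fall by 1.11 after rescaling and by 0.89 as deposited, and 415 of them missed the fold threshold alone. A further 40 genes were called lower as deposited alone, and each of them missed the adjusted p and not the fold threshold after rescaling. Between the scalings 97.0% of the falls called as deposited were kept, but only 51.7% of the rises. No gene was called in opposite directions.

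Among the genes called with 1 scaling, those with the highest mean TPM were all lower in the diploid. BRA06G0039864 (A06, 30455681 to 30455926) had a TPM of 12167.1, 12517.5 and 15276.9 in monoploid 1, 2 and 3 and of 8047.2 and 3935.5 in diploid 1 and 2. Its fall by 1.24 was called as deposited (adjusted p = 0.035, limma) and its fall by 1.5 after rescaling was not (adjusted p = 0.079). Under quantile normalization it fell by 0.36 (adjusted p = 0.41), and without diploid 2 by 0.72. BRA06G0039962 (A06, 30195760 to 30197220) read 5660.5, 5105.2 and 6836.7 in the monoploid and 1297.3 and 26.4 in diploid 1 and 2, so the diploid libraries stood further apart from each other than diploid 1 stood from the monoploid on a fold scale. Its log2FC of -4.95 (SE 1.37) was called as deposited (adjusted p = 0.036) and its log2FC of -5.21 (SE 1.46) was not called after rescaling (adjusted p = 0.054). As deposited it was -7.73 without diploid 1 and -2.17 without diploid 2. Called after rescaling alone were BRA09G0033732, with a log2FC of -1.08 (adjusted p = 0.036) against -0.81 as deposited, and BRA06G0039952, with -1.17 (adjusted p = 0.021) against -0.91. In all 4 genes both diploid libraries lay below every monoploid library. Each of these calls rested on several libraries. BRA06G0039864 was not called as deposited without monoploid 1, 2 or 3 or diploid 2 (adjusted p = 0.078, 0.054, 0.12 and 0.11), nor BRA06G0039962 without monoploid 1, 2 or 3 (adjusted p = 0.08, 0.051 and 0.094). After rescaling, BRA09G0033732 and BRA06G0039952 were not called without monoploid 1, monoploid 3, diploid 1 or diploid 2 (adjusted p = 0.14, 0.12, 0.22 and 0.11, and 0.068, 0.074, 0.076 and 0.12).

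Not overlapping was common in these data. As deposited, both diploid libraries lay above all monoploid libraries in 11562 genes (46.0%) and below them in 4151 (16.5%). After rescaling the numbers were nearly even, 7057 (28.1%) above and 6989 (27.8%) below. All 636 higher and all 1303 lower agreed DEGs were without overlap under both scalings, beside those shares of all genes.

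Most agreed changes were modest. The median rise was 1.6 as deposited and 1.39 after rescaling, and the median fall 1.51 and 1.72. As deposited, a log2FC of at least 2 was reached by 185 of the 636 rises (29.1%) and by 332 of the 1303 falls (25.5%). At least 3 was reached by 63 rises and 99 falls, and at least 4 by 24 rises and 29 falls. A log2FC of at least 5 was left to 2 rises and 10 falls, with the same counts after rescaling. The median TPM over the rising genes was 2.67, 2.75 and 2.55 in monoploid 1, 2 and 3 and 13.9 and 12.8 in diploid 1 and 2. Over the falling genes it was 14.2, 12.6 and 13.6 in the monoploid and 2.59 and 3.50 in the diploid. These medians were taken within each library and do not follow any single gene.

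In the monoploid the falling genes carried far more of the transcript pool than the rising ones, and in the diploid the gap was smaller. Together the 1303 falling genes held 17.8%, 15.4% and 18.4% of all TPM in monoploid 1, 2 and 3, and 4.82% and 5.70% in diploid 1 and 2. The 636 rising genes held 0.823%, 0.921% and 0.798% in the monoploid and 3.21% and 2.83% in the diploid. These sums follow from how the genes were called and describe only how much of the pool the calls cover. Part of the falling share lies in the region of A06 described below, and the sums without it were not computed.

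**Figure D2:**
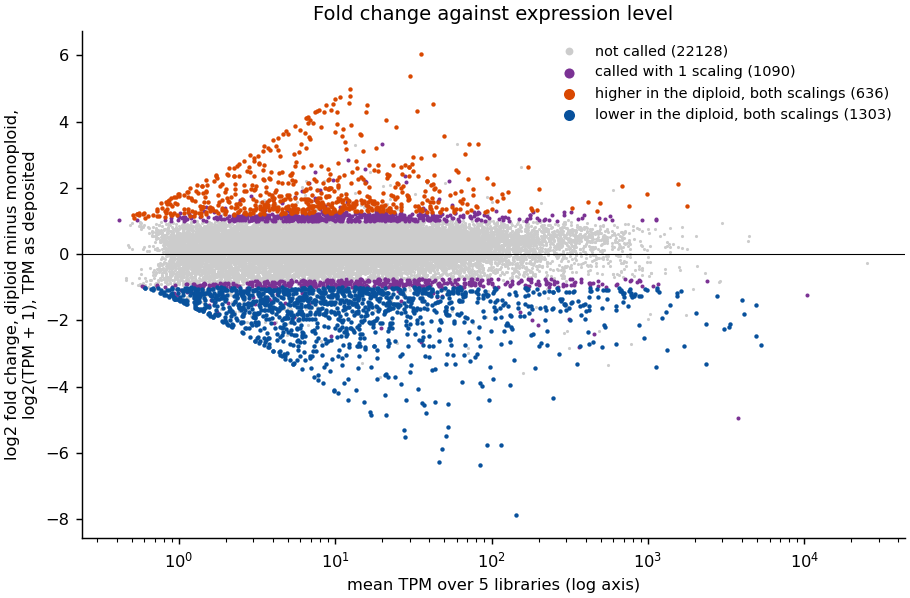
Log2 fold change (diploid minus monoploid, log2(TPM + 1), TPM as deposited) against mean TPM over the 5 libraries on a log axis, 1 point per tested gene, with 636 agreed rises in orange, 1303 agreed falls in blue and genes called with 1 scaling in purple. The most abundant DEGs lie below 0, and the straight edges on the left are genes at or near 0 TPM in 1 of the groups, whose fold change is bounded by the pseudocount.

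The 10 genes with the largest agreed rises lay between 0 and 5.32 TPM in the monoploid and between 20.7 and 116.1 TPM in the diploid. BRA03G0025464, a gene model of 231 bp on A03 (5956732 to 5956962), had a TPM of 0.811, 0.180 and 0.169 in monoploid 1, 2 and 3 and of 102.8 and 74.3 in diploid 1 and 2. Its log2FC was 6.03 (SE 0.25) as deposited and 5.84 (SE 0.27) after rescaling, with adjusted p = 6.4e-05 and 0.00023 (limma). BRA03G0029354 on the same chromosome (26072940 to 26075126) read 0.947, 1.97 and 0 in the monoploid and 75.2 and 71.6 in the diploid, a log2FC of 5.37 (SE 0.41, adjusted p = 0.00062). Both genes read at most 1.97 TPM in each monoploid library and at least 71.6 TPM in each diploid one.

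Of the 10, 3 were listed at 0 in every monoploid library. BRA07G005696 (A07, 25015718 to 25017016) read 33.2 and 28.7 in the diploid, BRA07G003803 (A07, 2414447 to 2415065) 28.4 and 21.5, and BRA02G0020382 (A02, 32673914 to 32674302) 22.7 and 20.7. A fold is not given for them, since the tables hold no counts to set a floor. BRA09G0034788, BRA08G0010686, BRA06G0039578 and BRA03G0028051 read at most 0.563 TPM in the monoploid and lay between 21.8 and 36.3 TPM in the diploid, with log2FC of 4.77, 4.74, 4.56 and 4.54. BRA08G0010123 (A08, 18798470 to 18799326) had the highest monoploid mean of the 10, at 5.32, 1.3 and 4.61 TPM against 83.9 and 116.1 in the diploid. Its log2FC was 4.52 (SE 0.43, adjusted p = 0.0013).

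The 10 largest falls ended between 0 and 3.85 TPM in the diploid, from monoploid means of 45.6 to 240.0 TPM. BRA09G0036870 (A09, 67815272 to 67816178, 907 bp) had a TPM of 174.0, 318.0 and 228.2 in monoploid 1, 2 and 3 and was listed at 0 in both diploid libraries. It was the most abundant agreed faller at 0 in both diploid libraries. BRA01G0014753, which spans 10536 bp on A01 (44845087 to 44855622), read 140.0, 144.1 and 137.0 in the monoploid and 0.179 and 1.45 in the diploid. Its log2FC was -6.38 (SE 0.29) as deposited and -6.55 (SE 0.27) after rescaling, with adjusted p = 8.9e-05 and 0.00018 (limma). The monoploid libraries differed by only a few TPM in that gene.

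BRA05G0042868 (A05, 2869960 to 2871488), at 75.5, 87.4 and 67.0 TPM in the monoploid, and BRA09G0036686 (A09, 66932722 to 66934134), at 38.8, 64.5 and 35.9 TPM, were likewise listed at 0 in both diploid libraries. BRA05G0043292 (A05, 5241860 to 5244393) was also at 0 in the diploid but uneven in the monoploid, at 28.5, 13.5 and 215.5 TPM, with the last from monoploid 3, and it was not called without diploid 1 (adjusted p = 0.1) or diploid 2 (adjusted p = 0.076). BRA02G0023611 (A02, 2518729 to 2520181) fell from 258.0, 155.9 and 152.1 TPM to 1.49 and 3.53, and BRA10G0012298 (A10, 25708761 to 25710023) from 221.0, 133.1 and 112.0 to 0.561 and 3.85. Both had a log2FC of -5.77 as deposited, with SE of 0.32 and 0.49. BRA09G0037625 (A09, 71385982 to 71390711) fell from 124.7, 84.7 and 50.8 TPM to 1.18 and 1.25, a log2FC of -5.22 (SE 0.34, adjusted p = 0.0003).

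The other 2 of the largest falls were next to each other on A09 and had the same span of 1491 bp. BRA09G0032762 (12492471 to 12493961) read 78.4, 33.1 and 25.3 TPM in monoploid 1, 2 and 3 and 0.0242 and 0.0852 in the diploid. BRA09G0032763 (12504809 to 12506299) read 146.3, 51.9 and 41.3 TPM in the monoploid and 0 and 0.399 in the diploid. In both models monoploid 1 was the highest and monoploid 3 the lowest of the monoploid libraries. Models of the same span side by side may be near-identical copies between which the read assignment could not be checked here, so their levels are best read together.

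**Figure D3:**
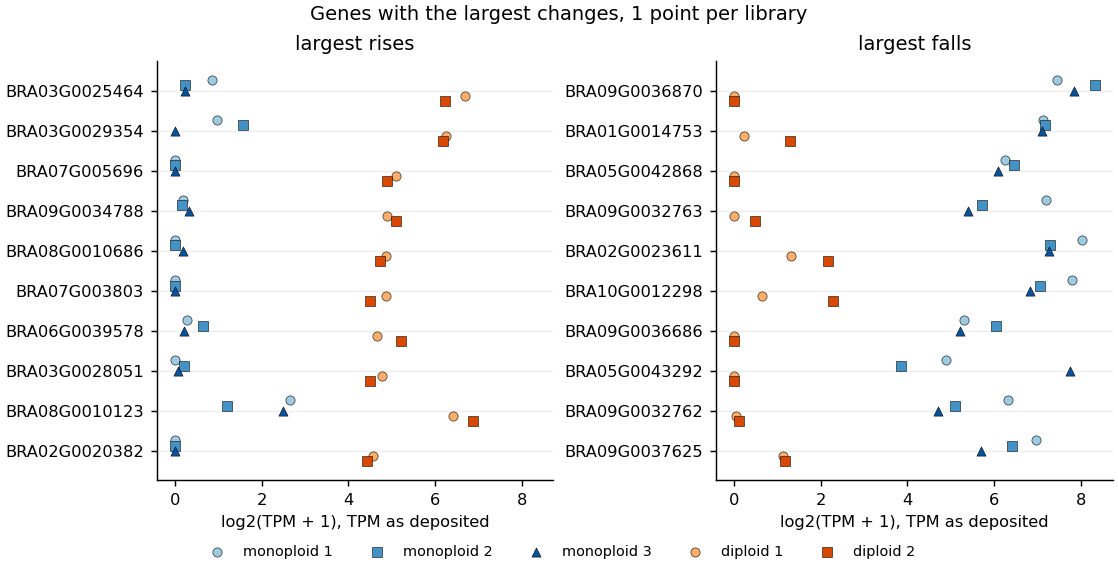
Log2(TPM + 1) of the 10 genes with the largest agreed rises (left) and the 10 with the largest agreed falls (right), TPM as deposited, 1 point per library (blue monoploid 1 to 3, orange diploid 1 and 2). The libraries of each gene fall into 2 separate groups because the genes were picked among those without overlap. Among the falls BRA05G0043292 has the widest spread, from 13.5 to 215.5 TPM in the monoploid.

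Genes at 0 throughout 1 group were few. Of the tested genes, 35 were listed at 0 in all monoploid libraries and 110 in both diploid libraries. All 35 of the first and 78 of the second were agreed DEGs, but a gene at 0 in 1 group entered the test only through its level in the other, so these counts do not measure anything beyond the filter. Their levels were mostly low. The mean diploid TPM of the 35 had a median of 4.35 and a maximum of 31, and the mean monoploid TPM of the 78 had a median of 2.76 and a maximum of 240.0.

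The share of falls was highest among the most abundant genes. Agreed DEGs made up 9.88% of the genes with a mean TPM under 5, 6.72% of those from 5 to 20, 6.04% of those from 20 to 100 and 11.0% of those over 100, beside 7.71% of all genes tested. Rises made up 3.62%, 2.43%, 1.85% and 1.23% in the same order. With each gene placed by the mean of its higher group, the rises no longer followed level, at 2.28%, 2.73%, 2.53% and 2.24%, while falls made up 5.34%, 4.64%, 4.50% and 9.89%. Falls made up 6.27%, 4.30% and 4.19% of the first 3 classes and 9.75% of the genes over 100. Among these most abundant genes, 166 agreed DEGs were lower and 21 higher in the diploid (88.8% lower), against 63.4% lower under 5, or 81.6% against 70.1% with genes placed by their higher group. By mean TPM, falls were 75.9% of the DEGs over 100 and 53.1% of those under 5 as deposited, and 91.8% and 68.2% after rescaling. Without the region of A06 described below, 142 falls and 21 rises were left among 1640 genes over 100.

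The 3 most abundant agreed risers rose by less than the largest changes. BRA06G0038137 (A06, 47666354 to 47666906) went from 965.4, 1204.0 and 904.2 TPM to 3604.8 and 2158.7. Its log2FC was 1.46 as deposited (SE 0.26, adjusted p = 0.01, limma) and 1.19 after rescaling (adjusted p = 0.036). As deposited it was 1.09 without diploid 1. The call as deposited was lost with replicate number added as a block (adjusted p = 0.075), which takes monoploid 3 out of the comparison. BRA09G0032805 (A09, 12841007 to 12842096) went from 671.5, 854.8 and 507.2 to 2916.4 and 2826.0 TPM, a log2FC of 2.11 (SE 0.24, adjusted p = 0.0025). BRA07G005822 (A07, 25583800 to 25584300) went from 455.4, 548.3 and 479.7 to 1981.2 and 1506.0 TPM, a log2FC of 1.81 (SE 0.18, adjusted p = 0.0018). In each of the 3 the lower diploid library was well over the highest monoploid one.

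The 3 most abundant fallers were among the most abundant gene models of the leaf. BRA04G002628 (A04, 26753348 to 26754151, 804 bp) read 7170.4, 6128.6 and 6760.5 TPM in monoploid 1, 2 and 3 and 1908.8 and 2758.8 in the diploid, a log2FC of -1.54 (SE 0.23, adjusted p = 0.0062) as deposited and -1.81 after rescaling. Under quantile normalization it was -0.59 and the call was lost (adjusted p = 0.18, limma). The call was also lost with no filter (adjusted p = 0.071) and with the replicate block (adjusted p = 0.075). BRA06G0039853 (A06, 30496553 to 30497992, 1440 bp) read 7791.8, 6599.8 and 9368.7 in the monoploid and 1850.4 and 743.6 in the diploid, a log2FC of -2.74 (SE 0.39, adjusted p = 0.0052). BRA06G0039868 (A06, 30443063 to 30444124, 1062 bp) read 6630.5, 6551.2 and 8336.9 against 2287.0 and 708.9, a log2FC of -2.48 (SE 0.46, adjusted p = 0.011). BRA06G0039868 had a log2FC of -1.64 without diploid 2, and its call was lost under quantile normalization (adjusted p = 0.06). BRA06G0039853 and BRA06G0039868 lie within 1 stretch of A06, and in both diploid 2 was far below diploid 1.

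Short gene models were called more often than long ones. The share of agreed DEGs was 14.1% under 500 bp, 11.2% from 500 to 1000 bp, 7.10% from 1000 to 2000 bp, 5.87% from 2000 to 5000 bp and 5.84% over 5000 bp. Rises made up 6.02% of the shortest class and 1.67% of the longest, and falls 8.12% and 4.17%. The median span was 1230 bp in risers and 1452 bp in fallers, beside 1753 bp over all genes tested. Within the genes under 5 TPM the share went from 16.0% in the shortest span class to 9.47% in the longest, and among those from 5 to 20 TPM from 14.1% to 3.83%. Genes over 100 TPM did not follow this order, with 12.2% in the shortest class and 18.4% of 49 genes in the longest. Short models rest on fewer reads at the same TPM, and the tables hold no counts, so the part of read depth in this was not tested.

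The longest and the shortest agreed DEGs changed by less than the median of their span classes, an absolute log2FC of 1.6 both under 500 bp and over 5000 bp. The longest agreed riser, BRA06G0039652 (A06, 38179193 to 38197363, 18171 bp), went from 0.397, 0.491 and 0.977 TPM to 3.56 and 3.43, a log2FC of 1.49 (SE 0.22, adjusted p = 0.0057). The longest faller, BRA03G0029808 (A03, 28648338 to 28671984, 23647 bp), went from 20.7, 22.9 and 15.8 to 7.69 and 9.93 TPM, a log2FC of -1.08 (SE 0.20, adjusted p = 0.011). The shortest riser, BRA03G0026734 (A03, 12549160 to 12549354, 195 bp), went from 5.79, 6.54 and 7.01 to 19.5 and 18.1 TPM, with a log2FC of 1.41 (SE 0.15, adjusted p = 0.002). The shortest faller, BRA01G0015893 (A01, 35482968 to 35483150, 183 bp), went from 4.83, 3.16 and 7.44 to 1.90 and 0.956 TPM, with a log2FC of -1.31 (SE 0.32, adjusted p = 0.026). That last call was lost on leaving out monoploid 1, monoploid 3, diploid 1 or diploid 2 (adjusted p = 0.065, 0.062, 0.1 and 0.17). The call of BRA06G0039652 was lost without diploid 1 (adjusted p = 0.065), and that of BRA03G0029808 without diploid 1 or 2 (adjusted p = 0.12 and 0.05) and, by its log2FC of -0.97, without monoploid 2.

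Changes were spread over all 10 chromosomes. The share of agreed DEGs ran from 6.25% on A10 to 9.97% on A07, with 6.30% on A02, 8.18% on A09 and 8.46% on A06. Falls made up from 60.1% of the agreed DEGs on A08 to 77.1% on A04, and from 68.0% to 81.7% of the DEGs after rescaling, but from 45.1% to 64.4% as deposited, where rises outnumbered them on A02, A03, A08, A09 and A10 and equalled them on A01. The median log2FC of all genes on a chromosome stayed between 0.22 and 0.27 as deposited and between 0.00 and 0.04 after rescaling, so no chromosome moved as a whole. On A06, 177 falls and 57 rises were called, and without the 1 Mb described next the shares on that chromosome were 4.69% falls and 2.12% rises. Both strands were alike, with 650 falls and 298 rises among 12586 genes on the plus strand and 653 and 338 among 12571 on the minus strand.

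**Figure D4:**
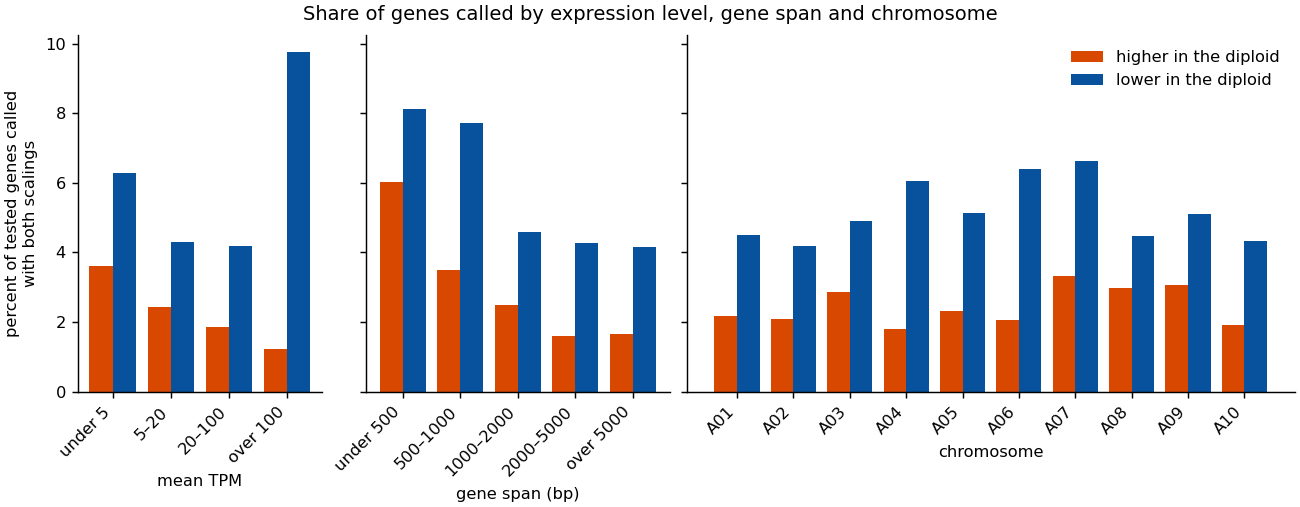
Percent of tested genes that were agreed DEGs, higher (orange) or lower (blue) in the diploid, by mean TPM, gene span and chromosome. Falls reach 9.75% of the genes over 100 TPM, where rises are at 1.23%, both directions are most frequent in gene models under 500 bp, and on all 10 chromosomes falls outnumber rises among agreed DEGs, which as deposited was not so on A01, A02, A03, A08, A09 and A10 (45.1% to 50% falls).

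Along the chromosomes, agreed DEGs were close to even except in a few places. With each chromosome cut into 10 equal parts, the share of rises lay between 2.22% and 3.42%. Falls lay between 4.21% and 6.71% in 9 of the parts and reached 8.80% in part 7, which fell to 6.19% without the A06 stretch. Of 290 windows of 1 Mb with at least 20 tested genes, the median window had 7.14% agreed DEGs, and 9 had more than 15%. The highest were A06 from 30 to 31 Mb, with 1 rise and 53 falls among 124 genes (43.5%), and A07 from 21 to 22 Mb, with 11 rises and 15 falls among 100 genes (26%). The window before it on A07, from 20 to 21 Mb, held 7 rises and 10 falls among 80 genes (21.2%).

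Neighbouring gene models were sometimes called together. Runs of 2 or more adjacent models in the same direction held 73 of the 636 rises in 30 runs and 189 of the 1303 falls in 78 runs. How many adjacent calls the shares of 2.53% rises and 5.18% falls among tested genes would give was not computed. Of the 10 runs with 4 or more models, 6 lay on A06 and 4 on A07. Those on A06 lay in the window from 30 to 31 Mb, except the run from BRA06G0039988 to BRA06G0039985 (25372313 to 25378058). Taking the next tested gene in place of the next gene model, the runs held 97 rises and 247 falls.

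The longest run was 9 falling gene models on A06, from BRA06G0039916 to BRA06G0039908 (30306404 to 30323471). Their log2FC as deposited ran from -3.01 to -1.16, with adjusted p between 0.002 and 0.029 (limma). BRA06G0039910 (1440 bp) was the most abundant, at 4296.4, 3534.0 and 5741.3 TPM in monoploid 1, 2 and 3 and 900.3 and 940.0 in diploid 1 and 2, a log2FC of -2.27 (SE 0.24). BRA06G0039914 and BRA06G0039913 had a log2FC of -1.87 and -1.59 without diploid 2. BRA06G0039910 has the same span as BRA06G0039853, which lies further along the same stretch on the opposite strand. Whether they share sequence, and reads with it, was not tested.

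The other members of the run fell to different depths in the diploid libraries. BRA06G0039916 read 314.6, 282.5 and 348.0 TPM against 98.7 and 61.3, and BRA06G0039915 420.0, 407.6 and 757.7 against 144.3 and 206.2. BRA06G0039914, BRA06G0039913, BRA06G0039912 and BRA06G0039911 lay between 44.2 and 145.6 TPM in the monoploid, between 15.5 and 32.1 in diploid 1 and between 5.73 and 6.09 in diploid 2. BRA06G0039909 was the least changed, at 191.0, 143.3 and 210.8 against 77.8 and 81.2 TPM. BRA06G0039908 was the least abundant, at 7.69, 4.97 and 7.42 TPM against 2.68 in diploid 1 and 0 in diploid 2. The calls of BRA06G0039915 and BRA06G0039909 were lost without diploid 1 (adjusted p = 0.13 and 0.084) and without diploid 2 (adjusted p = 0.053 in both), that of BRA06G0039913 without monoploid 3 (adjusted p = 0.051), and that of BRA06G0039908 without monoploid 1, monoploid 3 or diploid 2 (adjusted p = 0.075, 0.081 and 0.086).

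The A06 window from 30 to 31 Mb is set apart by its level. Its 129 gene models took 8.04%, 7.01% and 9.80% of all TPM in monoploid 1, 2 and 3 and 4.49% and 1.85% in diploid 1 and 2, and 62 of its 124 tested genes had a mean TPM over 100. Of its 53 falls, 37 were lower in diploid 2 than in diploid 1. With the window left out of the tables and the other TPM brought back to the same total, a choice made after seeing the data, the median gene was 0.18 higher in the diploid as deposited. There were then 2454 DEGs as deposited, with 1033 higher and 1421 lower, and 2041 agreed ones. The only rise called in the window was BRA06G0039933 (30264347 to 30266113), at 0.650, 1.24 and 0.107 TPM in the monoploid and 11.4 and 3.81 in the diploid.

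On A07, counting tested genes only, a rising run was followed directly by a falling one, a feature singled out after its values were seen. The first segment (21038353 to 21110490) has 13 gene models, of which 8 rose, 5 were not tested and none fell. The second segment (21114812 to 21188716) has 11, of which 7 fell, 3 were not tested and none rose. In the first segment, 9 gene models have a partner in the second, in the same order, on the same strand and with a span equal within 1%. In 6 of these pairs the model of the first segment rose and its partner fell.

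The levels of the partners mirrored each other. BRA07G005029 (1311 bp) was at 0, 0 and 0.0215 TPM in monoploid 1, 2 and 3 and at 17.8 and 21.4 in diploid 1 and 2, a log2FC of 4.35 (SE 0.17, adjusted p = 5.6e-05, limma). Its partner BRA07G005043 (1311 bp) was at 25.1, 32.5 and 25.5 TPM in the monoploid and at 0.0275 and 0.0837 in the diploid, a log2FC of -4.76 (SE 0.17, adjusted p = 5.2e-05). Added together, the pair read 25.1, 32.5 and 25.6 TPM in the monoploid and 17.8 and 21.5 in the diploid. BRA07G005032 (1855 bp) was listed at 0 in all monoploid libraries and read 18.4 and 18.8 in the diploid. Its partner BRA07G005046 (1855 bp) read 20.4, 25.3 and 20.2 TPM in the monoploid and 5.29 and 0.156 in diploid 1 and 2. Their sums were 20.4, 25.3 and 20.2 TPM against 23.7 and 19.0, and these overlap.

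Over the 6 pairs, the difference of the sums as deposited (diploid minus monoploid, mean log2 of sum + 1) lay between -0.69 and 0.14, with a median of -0.14. The median tested gene was 0.25 higher in the diploid as deposited, and sums after rescaling were not computed. The log2FC of the single models ran from 1.86 to 4.35 in the first segment and from -4.76 to -1.81 in the second. The pair of BRA07G005027 and BRA07G005041 had the largest difference of the sum, at 8.47, 9.71 and 9.22 TPM in the monoploid against 4.45 and 6.20 in the diploid. BRA07G005031 was too low to be tested, and with its partner BRA07G005045 the sums were 2.17, 2.39 and 2.29 TPM against 0.282 and 0.976. A pair further along, BRA07G005035 and BRA07G005049 (8052 bp), did not switch. BRA07G005035 was at 0 in all 5 libraries, and BRA07G005049 read 1.21, 1.00 and 1.02 TPM in the monoploid and 1.06 and 0.845 in the diploid (log2FC -0.09, adjusted p = 0.72). Whether the partners share sequence, and reads with it, was not tested.

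**Figure D5:**
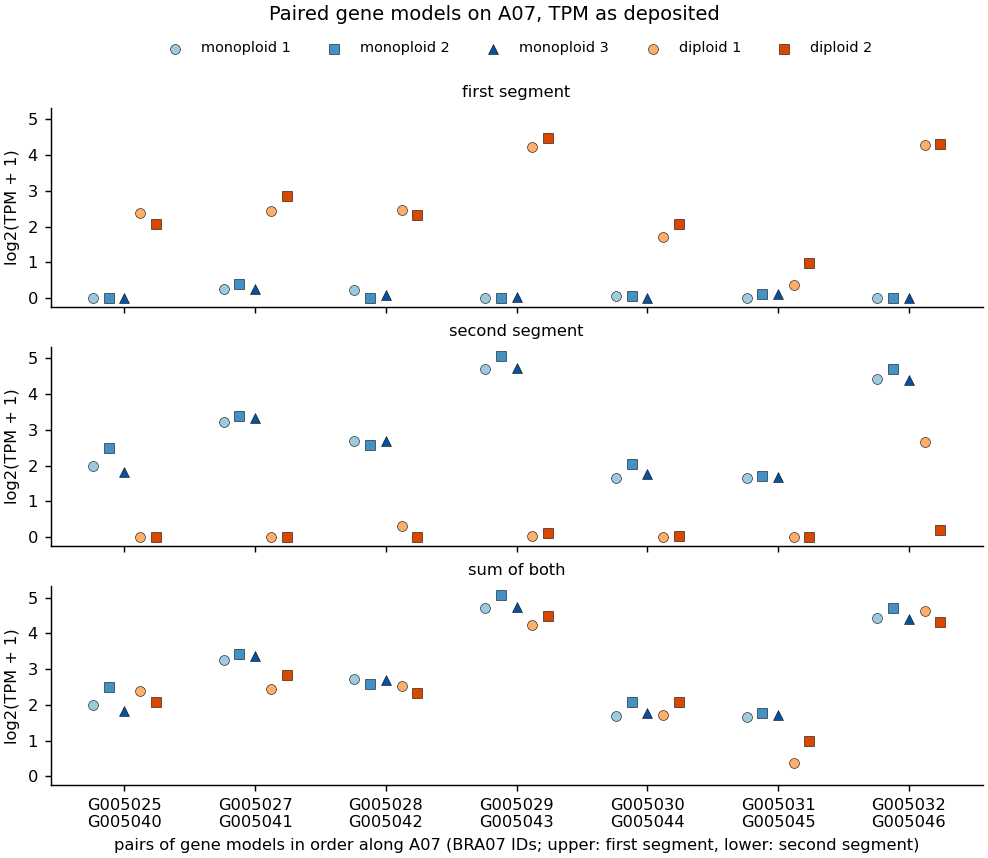
Log2(TPM + 1), TPM as deposited, of 7 pairs of gene models of matching span in 2 neighbouring segments of A07, in their order along the chromosome, with 1 point per library. The first segment (top) is higher in the diploid and the second (middle) in the monoploid, with BRA07G005031 low in the diploid (0.282 and 0.976 TPM) and BRA07G005046 still at 5.29 TPM in diploid 1, and the sums (bottom) of BRA07G005032 and BRA07G005046 are 20.2 to 25.3 TPM in the monoploid and 19.0 and 23.7 in the diploid.

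Opposite partners were also counted over all genes. Of the 636 agreed risers, 162 (25.5%) had a tested gene model within 200 kb whose span was equal within 1%, beside 27.1% of all tested genes, and in 17 of those 162 (10.5%) such a neighbour was an agreed faller, beside 6.70% of all tested genes that had one. The 6 risers of the A07 pairs are among these 17. Those pairs were singled out after their values were seen, so the 10.5% rests in part on them. The share without them was not computed. Of the 1303 agreed fallers, 368 (28.2%) had such a neighbour. It was an agreed riser for 17 (4.62%) and an agreed faller for 71 (19.3%), beside 3.03% and 6.70% of all tested genes with one. Of risers with one, 3.09% had an agreed riser.

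The libraries within a group were not alike across the agreed DEGs. As deposited, diploid 2 was above diploid 1 in 935 of the 1303 falling genes and below it in 290, with both at 0 in 78, and the 2 differed by at least 1 on the log2 scale in 111. Among the 636 rising genes diploid 2 was below diploid 1 in 412 and they differed by that much in 13. Monoploid 2 was the monoploid library closest to the diploid mean in 669 of the falling genes as deposited and in 838 after rescaling. For the rising genes the 3 monoploid libraries were closest in 224, 258 and 154 cases as deposited and in 233, 199 and 204 after rescaling. After rescaling, diploid 2 was above diploid 1 in 916 falling and below it in 437 rising genes, so it was the diploid library nearer to the monoploid in most genes of either direction.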

How the data were processed

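RNA-seq of leaves was analysed from 3 monoploid and 2 diploid libraries, and the 3 autotetraploid ones entered 1 alternative. The authors trimmed reads with fastp 0.21.0, aligned them with HISAT2 and ran StringTie 1.3.5; the processing notes give HISAT2 2.2.1. The assembly and annotation are not given in the sources used here. TPM, as deposited, is given for each gene model and adds up to 1000000 in every library. The deposited FPKM and the deposited coverage signal, which is not normalized for depth, were used only for their ratio, the aligned bases per library. The authors' own test used counts, not analysed here, so no counting interval could be computed, and how reads of similar copies were assigned is not stated beyond a filter on mapping quality whose kinds of data are not named. In the table of monoploid 1, 3 further columns were not used.

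Gene models that reached a TPM of 1 in 2 or more of the 5 libraries were tested on log2(TPM + 1) with limma 3.58.1 (R 4.3.3; lmFit, eBayes with a trend) and Benjamini-Hochberg adjustment, with ploidy as the only term and thresholds of 0.05 on the adjusted p and of 1 on the absolute log2 fold change. The fit was tested on simulated data. Median-ratio factors were taken over genes above 0 in all 5 libraries, with a geometric mean of 1. Level classes use the mean TPM over the 5 libraries.

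Named are, among agreed DEGs without overlap, the 10 largest rises and falls as deposited, the 3 with the highest mean TPM in each direction, the longest and shortest gene model in each direction and the longest run of neighbours, and the 2 with the highest mean TPM among genes called with only 1 of the scalings. These rules and classes were chosen with earlier results of these data known. Tables were made with pandas 2.3.3 and figures with matplotlib 3.10.9. Alternatives changed the pseudocount, filter, threshold, scaling, trend, block and libraries.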

Additional observations from a re-analysis of the deposited data

How the results depend on the processing

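No named gene changed direction under any alternative run that included it. The libraries of all 43 named genes did not overlap between the groups. Leaving out a library, or changing the pseudocount, threshold or trend, could therefore not reverse a direction as deposited. In every run that included them, 27 of the 43 kept their call. Without the A06 window, 29 of the 43 remained, and all 29 kept it. Counts of DEGs moved more. At an adjusted p of at most 0.01, 1581 genes were called as deposited (792 higher, 789 lower), 1237 after rescaling (339 higher, 898 lower) and 1051 with both (339 higher, 712 lower). With a mean TPM of at least 5, 889 falls were left as deposited, 383 rises after rescaling, and 1256 agreed DEGs with 383 rises, where fewer genes were tested. Quantile normalization gave 812 rises and 1474 falls, and upper-quartile rescaling 705 and 1656. A pseudocount of 0.1 gave 3354 DEGs as deposited and 2375 agreed ones, and no filter 2285 and 1661. The smaller pseudocount also widened the fold change of genes near 0 in 1 group, as for BRA08G0010686 from 4.74 to 7.65. Leaving out 1 library at a time gave 870 to 2962 DEGs as deposited (347 to 1538 higher, 523 to 1424 lower), 803 to 2803 after rescaling (218 to 746 higher, 585 to 2057 lower) and 689 to 2159 with both (218 to 746 higher, 471 to 1413 lower). The lowest counts came without diploid 1 and the highest without monoploid 2.

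Replicates of the groups share only a number, 1 and 2, with no pairing in the labels; the differences between replicates 1 and 2 of the groups correlated at -0.07 across genes. With the replicate block, 2231 genes were called as deposited, 1523 after rescaling (461 higher, 1062 lower) and 1380 with both.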
